A study of Homo sapiens with 9 samples.

Results

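The transcripts of PANC-1 cells with lowered SIRT6 were compared with those of control cells. PANC-1 is an established human cell line grown out of a pancreatic carcinoma of the duct. The comparison used the 3 libraries of cells transfected with short interfering RNA (siRNA) against SIRT6 (siSIRT6) and the 3 control libraries, which the column headers call siNC, 6 of the 9 libraries of the series. All were taken 48 h after transfection and shared the parental line, with no other agent named. Of 36753 gene identifiers, the 15630 with at least 1 FPKM (fragments per kilobase of gene, scaled to library depth, a level per length) in at least 3 of the 6 libraries were tested. The remaining 3 libraries, of cells transfected with siRNA against the histone demethylase KDM5C (siKDM5C), served only to ask whether a change after siSIRT6 differed from that after another siRNA. How many siRNAs were used, and their sequences, is not stated in the labels, so loss of SIRT6 and any other effect of its siRNA cannot be told apart. The labels also do not say whether the 3 replicates of a group came from separate cultures, and p-values then measure a spread between libraries that may be technical.

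SIRT6 is a nuclear sirtuin, an enzyme that uses NAD to remove acyl groups from histone H3 and other proteins, and it is known to bind chromatin at promoters and to restrain genes driven by NF-kB, by hypoxia factors and by sterol regulatory factors. The 4 gene programs followed here were mitosis, extracellular matrix, lipid metabolism and inflammation. In cycling cells, the mitotic genes are held silent early in the cell cycle and switched on together before division by the MuvB complex with MYBL2 and FOXM1; pancreatic carcinoma is known for a dense matrix and for its NF-kB activity.

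The libraries held 18201413 to 26910441 reads in genes, recovered from the steps of the FPKM values, so that a gene of 1 kilobase without reads could still lie at up to 0.111 to 0.165 FPKM (3 reads, counting error only). Across tested genes Pearson's r of log2(FPKM + 1) was 0.984 to 0.989 between control libraries, 0.990 to 0.991 between siSIRT6 libraries and 0.947 to 0.953 between the groups. The epithelial and mesenchymal genes of this line were present, with KRT8 at 495 ± 14.7 FPKM, KRT18 at 459 ± 12.9 FPKM and VIM at 612 ± 64.99 FPKM in control (mean ± SD, n = 3, as for all such values), while KRT7 stood at 6.38 ± 0.738 FPKM, EPCAM near 1 FPKM and KRT17 near 0. Defining genes of leukocytes (PTPRC, LYZ), fibroblasts (DCN, PDGFRA, PDGFRB), endothelium (PECAM1, VWF, CLDN5) and pancreatic acini (PRSS1, CPA1) stayed at or near 0 in every library. Genes of mitochondrial DNA took 39.7% ± 1.42 of the summed FPKM in control and 34.5% ± 0.709 after siSIRT6, a shift whose part in the results was not tested.

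SIRT6 itself (ENSG00000077463, chr19:4174109-4182604, minus strand in GRCh38) stood at 6.20, 5.17 and 7.17 FPKM in control replicates 1, 2 and 3 and at 0.795, 0.509 and 0.487 FPKM in siSIRT6 replicates 1, 2 and 3. Every siSIRT6 library lay far below every control, their mean was 9.66% of the control mean, and the change was -2.16 on the log2(FPKM + 1) scale (SE 0.13, limma-trend with Benjamini-Hochberg adjustment over all tested genes, adjusted p = 4.31e-05), which are the scale and the test of every change given here. Of the other sirtuins, the nucleolar SIRT7 fell from 13.1 ± 0.587 to 8.38 ± 0.310 FPKM and the nuclear SIRT1 fell from 15.9 ± 1.06 to 11.8 ± 0.293 FPKM, so SIRT6 was not the one sirtuin gene that fell. The mitochondrial SIRT4 was also called (1.40 ± 0.321 FPKM in control and 0.790 ± 0.196 FPKM after siSIRT6, adjusted p = 0.0284), but not without siSIRT6 replicate 2 (-0.41, adjusted p = 0.0753) or 3 (-0.35, adjusted p = 0.0873), and it reached the expression minimum only through the controls. SIRT3 (change 0.10, 95% interval -0.08 to 0.28) and SIRT2 did not pass. KDM5C, at 18.4 ± 0.389 FPKM in control and 17.8 ± 0.139 FPKM after siSIRT6, did not pass either.

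The response was broad. At an adjusted p under 0.05, 9100 genes changed, 58.2% of those tested, with 4211 that rose (26.9%) and 4889 that fell (31.3%), so a call is common and counts of members are read against these shares. The median change of all tested genes was -0.05, and the median size of the called changes was 0.41. A change of at least 1 log2 was rarer, in 690 genes or 4.41%, of which 349 rose (2.23%) and 341 fell (2.18%). The 3 siSIRT6 libraries lay wholly above or wholly below the 3 controls for 66.4% of genes. The lists of the 4 programs held 544 tested genes, of which 416 were called. The libraries of the groups did not overlap for 415 of the 416. That share was not counted among all called genes, so it is not read as a trait of the members. Mitosis leaned down, with 111 of 145 members that fell and 10 that rose. Inflammation leaned the same way (82 fell and 15 rose of 133). Matrix (80 rose and 28 fell of 131) and lipid genes (64 and 26 of 135) leaned up.

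**Figure D1:**
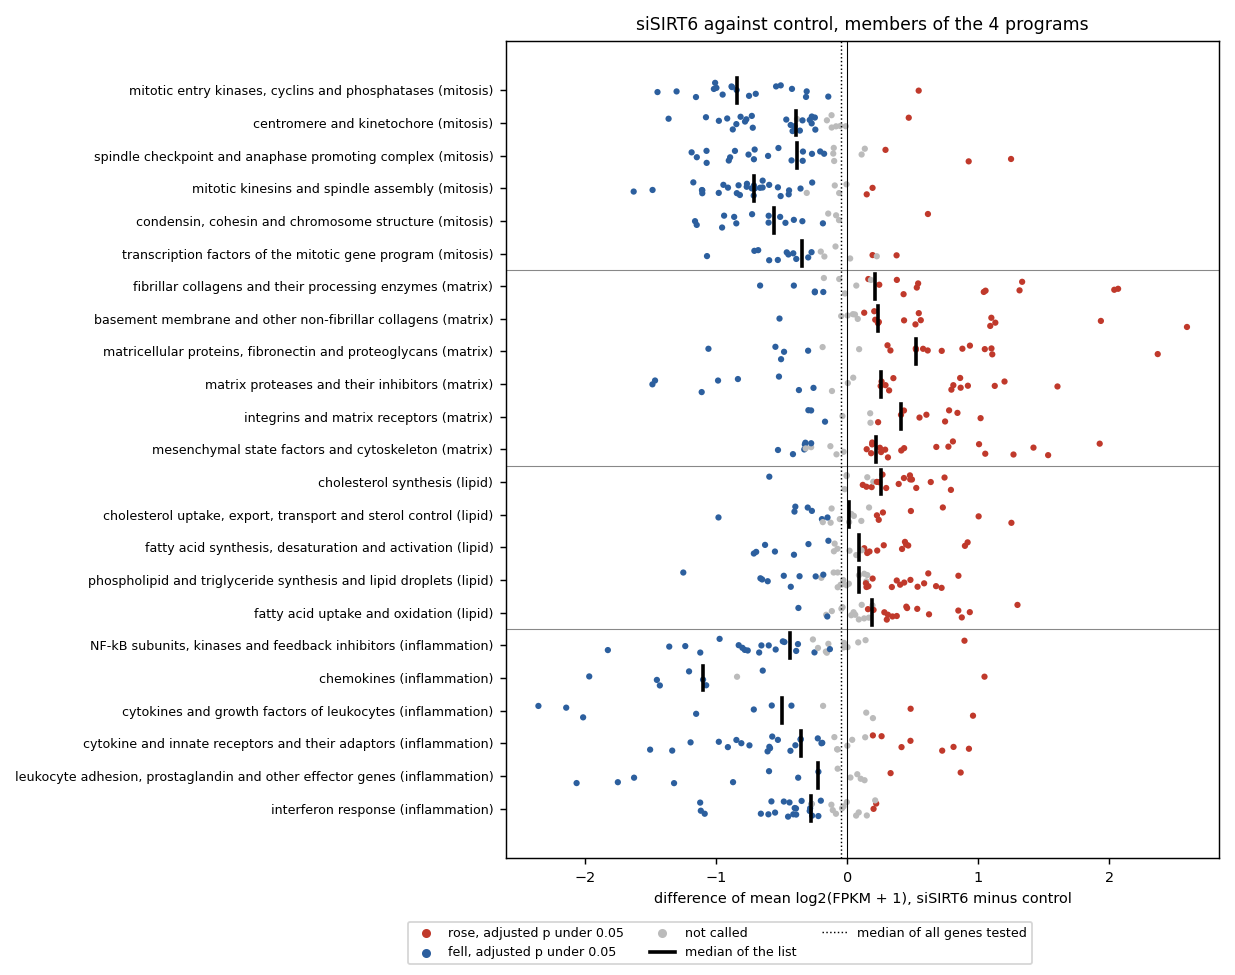
Each point is a tested gene of a list, placed by its difference of mean log2(FPKM + 1) between 3 siSIRT6 and 3 control libraries (horizontal axis), red where it rose, blue where it fell and grey where it was not called. Black bars are list medians and the dotted line the median of all genes tested (-0.05). The bars of the 6 mitosis lists lie between -0.84 and -0.34 and that of the chemokines at -1.10, while the matrix lists lie between 0.21 and 0.52.

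Most genes of mitosis fell after siSIRT6. The kinase PLK1, which drives entry into and passage through mitosis, the APC/C activator CDC20 and the proliferation marker MKI67 each lost a large part of their level, and the median over the 145 tested members was -0.52. The 111 falls made up 76.6% of members, and 20 reached 1 log2 (13.8%). Of 148 listed genes, 3 were below the expression minimum, and 4 reached 1 FPKM in 3 libraries only through the controls (CENPC, CIT, E2F8 and KIF15), where a fall was in part set by the filter. In bulk RNA, fewer cells in mitosis and less mitotic RNA per cell cannot be told apart.

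PLK1 (ENSG00000166851, chr16:23677656-23690367, plus strand) stood at 23.3, 23.9 and 25.99 FPKM in the controls and at 8.12, 8.37 and 8.42 FPKM after siSIRT6. CDC20 (ENSG00000117399, chr1:43358955-43363203, plus strand) stood at 55.9, 54.4 and 56.6 FPKM and 24.6, 24.4 and 24.7 FPKM. For both genes the highest siSIRT6 library was under the lowest control, with a change of -1.45 for PLK1 (SE 0.05, adjusted p = 1.01e-05) and -1.15 for CDC20 (SE 0.03, adjusted p = 5.99e-06). PLK1 shares 488 exonic bases with an antisense gene that moved with it, and the labels do not say which strand was counted. Shared bases are given throughout as the longest overlap of a single pair of exons, so the total can be larger. The promoters of PLK1 and CDC20 hold a pair of sequence words known from mitotic genes, that of the element bound by MuvB complexes and the CCAAT box bound by NF-Y. The windows run from 250 bases before to 50 after the RefSeq transcription start (GRCh38.p14), 5′ to 3′ along the gene, with TTTGAA (the core of the cell cycle homology region) and CCAAT, or their reverse complements, in capitals. The PLK1 window is chr16:23678639-23678938, plus strand and the CDC20 window chr1:43358731-43359030, plus strand.
PLK1: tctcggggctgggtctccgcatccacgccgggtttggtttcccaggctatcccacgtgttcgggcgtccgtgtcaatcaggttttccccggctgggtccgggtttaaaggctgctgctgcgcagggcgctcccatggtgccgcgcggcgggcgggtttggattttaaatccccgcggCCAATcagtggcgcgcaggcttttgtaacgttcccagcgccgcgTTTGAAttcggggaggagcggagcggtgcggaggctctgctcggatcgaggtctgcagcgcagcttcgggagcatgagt
CDC20: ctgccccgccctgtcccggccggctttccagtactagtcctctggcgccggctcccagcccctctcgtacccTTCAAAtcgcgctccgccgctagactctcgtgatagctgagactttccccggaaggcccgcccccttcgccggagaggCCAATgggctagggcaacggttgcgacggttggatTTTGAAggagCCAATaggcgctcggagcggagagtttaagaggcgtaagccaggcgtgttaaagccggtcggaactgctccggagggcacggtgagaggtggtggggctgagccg

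PLK1 held TTTGAA starting at base -29 and CCAAT at base -73 from the start site. CDC20 held TTTGAA at -65 and its reverse complement at -178, with CCAAT at -100 and -55. A promoter was on hand for 92 of the 111 mitosis members that fell. TTTGAA, on either strand, was in 51 of the 92 (55.4%), in 2 of 10 members that rose and in 5 of 21 that were not called, against 15.4% of all 27305 promoters of the same length. CCAAT, a short and common word, was in 59 of the 92 (64.1%), 5 of 10 and 12 of 21, against 35.7% of all. Both occurred in 34 of the 92 (37.0%), 1 of 10 and 4 of 21, against 6.08%. Among the 20 members that fell by at least 1 log2, 17 had a window, and 10 of these held both. A match describes the letters in a window and is not a binding site.

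Among the 19 kinases, cyclins and phosphatases of mitotic entry, 18 fell and 1 rose, with a median of -0.84. CDK1, the catalytic subunit that starts mitosis, stood at 21.2, 21.5 and 19.1 FPKM in control and 8.44, 8.58 and 9.09 FPKM after siSIRT6, a change of -1.15 (SE 0.06). Its partner cyclin gene CCNA2 fell from 20.1 ± 1.80 to 9.40 ± 0.224 FPKM, and AURKB, the kinase of the chromosomal passenger complex, fell from 21.1 ± 4.13 to 7.89 ± 0.193 FPKM. The exception was CDC25B, a phosphatase that activates CDK1, at 59.02, 59.3 and 61.2 FPKM in control and 87.4, 87.6 and 88.5 FPKM after siSIRT6. All 3 siSIRT6 libraries lay above the controls (0.55, SE 0.03, adjusted p = 4.36e-05). Its promoter window held neither TTTGAA nor CCAAT.

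The centromere and kinetochore list had 22 falls, 1 rise and 7 genes not called of 30 (median -0.39). Genes that load the centromeric histone CENPA led it. MIS18A, of the loading complex, fell from 10.05 ± 0.649 to 3.30 ± 0.257 FPKM, and OIP5, its partner, fell from 13.8 ± 0.889 to 6.04 ± 0.971 FPKM; OIP5 shares 470 exonic bases with OIP5-AS1, which rose. The kinetochore genes NUF2 (5.62 ± 0.511 FPKM in control and 2.37 ± 0.417 FPKM after siSIRT6) and CENPM (5.08 ± 0.481 FPKM in control and 2.23 ± 0.298 FPKM after siSIRT6) fell too. SKA2, of the complex that couples kinetochores to microtubules, rose from 4.39 ± 0.347 to 6.46 ± 0.238 FPKM. SPC24, which with NUF2 forms the NDC80 complex, was not called at 12.1 ± 0.431 FPKM in control and 12.04 ± 0.416 FPKM after siSIRT6, so subunits of a single complex did not share a call.

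Of 26 genes of the spindle checkpoint and the anaphase promoting complex (APC/C), 18 fell, 3 rose and 5 were not called. The checkpoint inhibitor MAD2L1 fell from 6.67 ± 0.619 to 2.37 ± 0.288 FPKM, with a change of -1.19, and securin (PTTG1), which guards sister chromatid separation, fell from 40.8 ± 2.51 to 18.8 ± 0.562 FPKM. The highest of those not called was CDC16, of the APC/C core, at 16.5 ± 0.952 FPKM in control and 15.2 ± 0.214 FPKM after siSIRT6 (not called with all libraries but called without control replicate 3, with a change of -0.15). ZW10, which brings dynein and checkpoint proteins to kinetochores and also works in membrane traffic, went the other way, at 3.77, 3.67 and 4.15 FPKM in control and 10.4, 9.77 and 11.6 FPKM after siSIRT6 (1.25, SE 0.07, adjusted p = 4.51e-05). It was the 1 mitosis member with a rise of at least 1 log2. MAD1L1, the anchor of MAD2L1 at kinetochores and chosen after its values were seen, also rose from 2.75 ± 0.197 to 6.14 ± 0.313 FPKM.

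The largest falls of the program, those of KIF18B and ANLN, were among motor and spindle genes. Of 34 kinesins and spindle factors 28 fell and 2 rose, with a median of -0.71. KIF18B, a kinesin that shortens astral microtubules, stood at 10.4, 10.3 and 10.9 FPKM in control and 2.78, 2.84 and 2.57 FPKM after siSIRT6, with groups far apart (-1.63, SE 0.05, adjusted p = 6.81e-06). ANLN, the anillin that scaffolds the cleavage furrow, fell from 55.5 ± 3.78 to 19.2 ± 0.746 FPKM. The spindle motor KIF15 fell from 3.10 ± 0.297 to 0.818 ± 0.1004 FPKM, and borealin (CDCA8), a passenger complex subunit, fell from 28.8 ± 0.489 to 12.8 ± 0.358 FPKM. Other subunits of that complex stood elsewhere: BIRC5 (survivin) was at 8.74 ± 0.158 FPKM in control and 8.71 ± 0.306 FPKM after siSIRT6 and INCENP at 9.39 ± 0.517 FPKM in control and 8.96 ± 0.210 FPKM after siSIRT6, neither called; both were chosen after their values were seen. The spindle stabilizer TACC3 rose from 5.54 ± 0.196 to 6.48 ± 0.134 FPKM, and the kinetochore adaptor KNSTRN, at 11.9 ± 1.32 FPKM in control and 11.03 ± 0.589 FPKM after siSIRT6, was not called.

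MKI67 (ENSG00000148773, chr10:128096659-128126385, minus strand), which coats mitotic chromosomes and is the usual marker of cycling cells, stood at 27.8, 28.1 and 27.2 FPKM in control and 12.1, 11.9 and 11.6 FPKM after siSIRT6, a change of -1.16 (SE 0.04, adjusted p = 6.91e-06) with no overlap. It belonged to the chromosome structure list, where 14 of 18 fell. TOP2A, the topoisomerase that untangles sister chromatids, fell from 39.4 ± 1.68 to 17.2 ± 0.0245 FPKM. The condensin I subunit NCAPH fell from 6.65 ± 0.0914 to 2.95 ± 0.220 FPKM and sororin (CDCA5), which protects cohesion, fell from 20.1 ± 0.606 to 10.01 ± 0.454 FPKM. The cohesin ring subunit SMC1A rose from 9.19 ± 0.439 to 14.6 ± 0.231 FPKM, and its partner STAG2 stood at 17.02 ± 2.24 FPKM in control and 15.9 ± 0.280 FPKM after siSIRT6 (not called with all libraries but called without control replicate 3, with a change of -0.19).

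Several factors that run this program fell too. FOXM1 fell from 15.4 ± 1.08 to 6.80 ± 0.334 FPKM, although it shares 651 exonic bases with ITFG2, and 11 of the 18 transcription factor and MuvB genes fell. The repressors E2F8 (1.60 ± 0.182 FPKM in control and 0.592 ± 0.0543 FPKM after siSIRT6) and E2F4 (22.4 ± 1.35 FPKM in control and 14.5 ± 0.491 FPKM after siSIRT6) and the activator E2F3 (14.5 ± 1.25 FPKM in control and 8.68 ± 0.672 FPKM after siSIRT6) fell. Another activator, E2F1, rose from 5.18 ± 0.346 to 7.02 ± 0.117 FPKM. E2F7, chosen after its values were seen, went from 12.3 ± 0.617 to 14.2 ± 0.410 FPKM and so rose while E2F8 fell. RB1, the pocket protein that holds E2F factors in check, stood at 9.24 ± 1.25 FPKM in control and 8.58 ± 0.299 FPKM after siSIRT6 and was not called (95% interval -0.31 to 0.14), although without control replicate 3 it was (-0.19).

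DNA replication genes, a context list outside the 4 programs, shared the direction: 30 of 38 fell and 1 rose, with a median of -0.34. The helicase subunit MCM7 fell from 37.4 ± 3.85 to 18.1 ± 0.956 FPKM, the thymidine kinase TK1 fell from 26.5 ± 2.21 to 13.1 ± 1.58 FPKM, GINS1 fell from 6.47 ± 0.297 to 3.04 ± 0.240 FPKM and the flap nuclease FEN1 fell from 25.3 ± 1.15 to 13.9 ± 0.429 FPKM. CCNE1, the cyclin that starts S phase, rose from 7.82 ± 0.338 to 10.6 ± 0.110 FPKM. The clamp loader subunit RFC2, at 9.36 ± 0.620 FPKM in control and 9.06 ± 0.546 FPKM after siSIRT6, was not called.

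Most of these genes were lower after siSIRT6 than after siKDM5C. The difference between the knockdowns was tested directly in a fit of all 9 libraries over 16135 genes, where 6442 (39.9%) differed, 3009 higher (18.6%) and 3433 lower (21.3%) after siSIRT6. Of the 145 mitosis members, 106 were lower after siSIRT6 than after siKDM5C and 4 higher, and 95 both fell against control and were lower than after siKDM5C; over all genes that pair of calls was made for 11.5%. Both calls use the same siSIRT6 libraries. AURKB showed the widest gap of the program, at 28.3, 22.9 and 25.7 FPKM in the siKDM5C libraries, above all 3 siSIRT6 libraries (-1.58, adjusted p = 3.83e-05). ESPL1, the separase that cuts cohesin, was at 2.66 ± 0.136 FPKM after siSIRT6 and 9.30 ± 0.603 FPKM after siKDM5C (-1.49, adjusted p = 1.29e-06). CDC25B was higher after siSIRT6 than after siKDM5C (48.4 ± 2.47 FPKM there), whereas ZW10, at 12.4 ± 0.949 FPKM after siKDM5C, did not differ at the threshold (-0.21, adjusted p = 0.0615). Of the 38 replication genes, 34 were lower after siSIRT6 than after siKDM5C. The median of that list against control was -0.34 after siSIRT6 and 0.26 after siKDM5C, values that share the controls. The gap thus holds a shift after siKDM5C as well as the fall after siSIRT6.

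**Figure D2:**
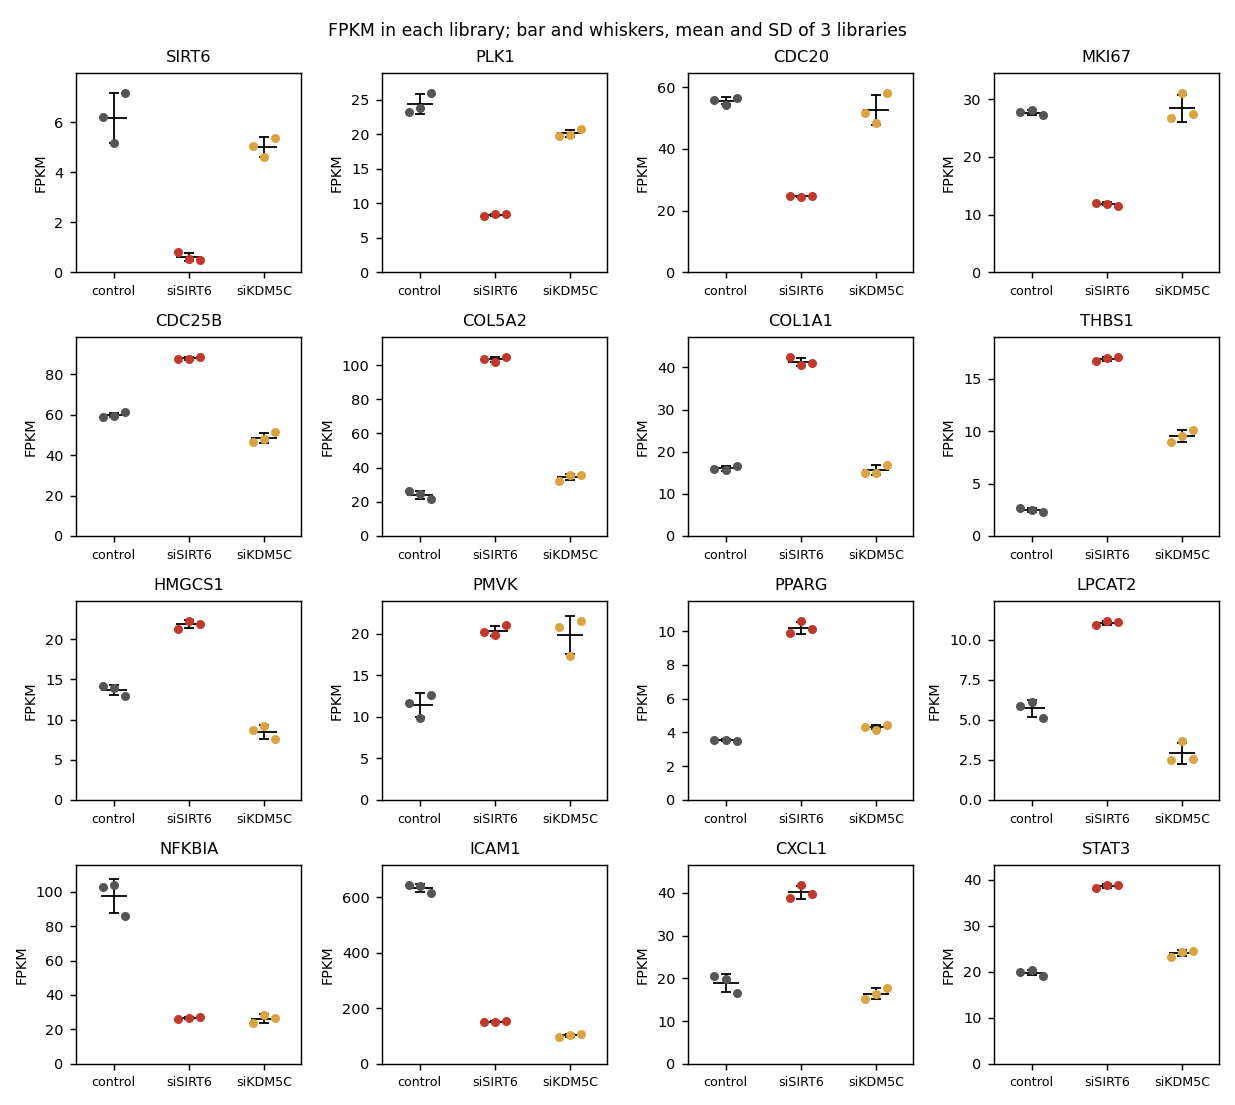
FPKM of 16 genes (vertical axis of each panel, starting at 0) in each of the 9 libraries, with groups along the horizontal axis; each point is 1 library and each bar the mean of 3, with whiskers of 1 SD. PLK1, CDC20 and MKI67 lie lower in the siSIRT6 libraries than in both other groups, COL5A2 and PPARG higher, and the points of ICAM1 and NFKBIA lie low after both knockdowns.

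Matrix genes changed in both directions, with the collagen chains COL5A2 and COL5A1, the thrombospondin THBS1 and the netrin NTN4 among the rises and urokinase (PLAU) among the falls. Of 131 tested members 80 rose (61.1%, against 26.9% of all genes) and 28 fell (21.4%), with a median of 0.26. Rises of at least 1 log2 were made by 25 members (19.1%, against 2.23%). The lists named 205 matrix genes, of which 72 with values were below the expression minimum and 2 are not analysed here, so the tested set is the expressed part of the program. COL11A1, COL3A1, COL4A1, COL4A5, ITGB8, LAMA4, LOXL4 and MYLK reached 1 FPKM in 3 libraries only after siSIRT6, and COL27A1, MMP19, MMP9 and TGFBR3 only in control, so their direction was in part set by the filter.

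Fibrillar collagens are the rope-like collagens of stroma, and the largest rises among them and their processing enzymes were those of COL5A2 and COL5A1. COL5A2 (ENSG00000204262, chr2:189031896-189225312, minus strand) stood at 26.1, 24.5 and 21.4 FPKM in control and 104, 102 and 105 FPKM after siSIRT6, and its partner chain COL5A1 at 5.25, 5.39 and 4.96 FPKM and 24.1, 24.1 and 25.3 FPKM. Neither gene had overlapping groups, and the changes were 2.07 (SE 0.07, adjusted p = 1.01e-05) and 2.04 (SE 0.04, adjusted p = 4.75e-06). COL1A1, the main chain of type I collagen, stood at 15.97, 15.5 and 16.6 FPKM and 42.5, 40.7 and 40.96 FPKM, a change of 1.32 (SE 0.04). LOXL4, an amine oxidase that crosslinks collagen, rose from 0.632 ± 0.0770 to 3.12 ± 0.177 FPKM. PCOLCE, which speeds removal of the collagen propeptide, fell from 3.18 ± 0.465 to 1.63 ± 0.194 FPKM, and the lysyl hydroxylase PLOD2 stood at 72.6 ± 7.21 FPKM in control and 63.8 ± 1.16 FPKM after siSIRT6, a change called only without control replicate 3 (-0.26). Of the collagens and processing enzymes together 12 of 22 rose and 5 fell. COL1A1 and COL3A1 are also markers of fibroblasts. The summed FPKM of the fibroblast and stellate cell markers went from 16.2 to 17.2 in the controls to 42.8 to 44.9 after siSIRT6, but without these collagens it was 0.266 to 0.323 and 0.392 to 0.552, and DCN, PDGFRA and PDGFRB were at or near 0 in every library. Endothelial markers summed to 0.476 to 0.696 FPKM in control and 0.805 to 0.923 FPKM after siSIRT6, most of it KDR, with PECAM1, VWF and CLDN5 at or near 0.

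Basement membrane genes had 14 rises and 1 fall of 20. NTN4, a laminin-related netrin that modulates basement membranes, was the largest at 12.1, 11.99 and 11.4 FPKM in control and 76.1, 76.3 and 76.8 FPKM after siSIRT6 (2.59, SE 0.04, adjusted p = 2.92e-06). The laminin chain LAMA4 was barely present in control (0.271, 0.254 and 0.215 FPKM) and stood at 3.70, 3.78 and 3.84 FPKM after siSIRT6. The transmembrane collagen COL13A1 rose from 1.20 ± 0.0970 to 3.82 ± 0.203 FPKM, and perlecan (HSPG2), which shares 1244 exonic bases with LDLRAD2, rose from 23.2 ± 0.990 to 50.9 ± 1.05 FPKM. LAMB3, a chain of the epithelial adhesion laminin, fell from 9.24 ± 0.386 to 6.16 ± 0.221 FPKM, while LAMA5 was not called at 54.8 ± 4.28 FPKM in control and 57.02 ± 0.757 FPKM after siSIRT6.

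Matricellular proteins, which signal through the matrix without building it, and proteoglycans had the highest median of the matrix lists (0.52), with 13 rises and 5 falls of 20. THBS1 (ENSG00000137801, chr15:39581079-39599466, plus strand), a thrombospondin that activates latent TGF-beta, stood at 2.63, 2.47 and 2.29 FPKM in control and 16.7, 16.9 and 17.1 FPKM after siSIRT6 (2.37, SE 0.05, adjusted p = 4.61e-06). Its antisense partner THBS1-AS1, with 260 shared exonic bases, rose from 3.05 ± 0.383 to 21.9 ± 1.45 FPKM. LTBP1, which stores latent TGF-beta in the matrix, rose from 9.30 ± 0.126 to 21.2 ± 0.562 FPKM, and tenascin C (TNC) rose from 1.03 ± 0.0503 to 3.36 ± 0.122 FPKM. EFEMP2, a fibulin needed for elastic fibres, fell from 4.54 ± 0.396 to 1.67 ± 0.350 FPKM. Syndecan 4 (SDC4) was at 95.4 ± 2.93 FPKM in control and 102 ± 1.35 FPKM after siSIRT6; it was not called here but passed after median-of-ratios scaling of the libraries (0.13, adjusted p = 0.0235).

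Proteases and inhibitors split, with 13 rises and 8 falls of 24. The gelatinase MMP2 stood at 17.4, 17.3 and 18.6 FPKM in control and 56.4, 54.9 and 57.1 FPKM after siSIRT6 (1.61, SE 0.04), and the membrane protease ADAM19 rose from 14.9 ± 0.167 to 35.5 ± 0.581 FPKM. Urokinase (PLAU), the plasminogen activator, stood at 781, 784 and 737 FPKM and 280.0, 271 and 281 FPKM, with every siSIRT6 library lower (-1.47, SE 0.04, adjusted p = 5.99e-06). Its receptor PLAUR (7.81 ± 0.136 FPKM in control and 3.09 ± 0.320 FPKM after siSIRT6), chosen after its values were seen, fell as well. ADAM17, the sheddase of tumour necrosis factor and growth factor precursors, fell from 9.82 ± 0.564 to 2.86 ± 0.122 FPKM, with 1257 exonic bases shared with IAH1, which also fell. The inhibitor TIMP1 was not called at 90.8 ± 4.38 FPKM in control and 93.8 ± 3.17 FPKM after siSIRT6.

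Of 15 integrins and matrix receptors 9 rose and 3 fell. ITGB8, whose integrin releases active TGF-beta, rose from 0.523 ± 0.114 to 2.08 ± 0.193 FPKM. The hyaluronan receptor CD44 stood at 98.8, 100.4 and 91.5 FPKM in control and 175, 176 and 173 FPKM after siSIRT6 (0.84, SE 0.04), the hemidesmosome integrin ITGB4 rose from 13.4 ± 0.355 to 23.7 ± 0.787 FPKM and ITGA3 rose from 125 ± 1.43 to 211 ± 3.76 FPKM. ITGAE, which binds E-cadherin and shares 427 exonic bases with the falling HASPIN, fell from 2.76 ± 0.311 to 2.06 ± 0.0846 FPKM, and the fibronectin receptor ITGA5 was not called at 119 ± 6.01 FPKM in control and 116 ± 3.21 FPKM after siSIRT6.

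Among 30 mesenchymal and cytoskeletal genes 19 rose and 6 fell. The rises were led by tropomyosins, which stabilize actin filaments. TPM4 stood at 7.84, 8.19 and 7.97 FPKM in control and 33.5, 33.01 and 33.2 FPKM after siSIRT6 (1.93, SE 0.03, adjusted p = 4.00e-06), TPM2 rose from 37.9 ± 2.60 to 112 ± 3.20 FPKM, and TPM1 rose from 9.78 ± 0.337 to 24.99 ± 0.181 FPKM, the last with 1693 exonic bases shared with TPM1-AS. PMEPA1, a feedback inhibitor of TGF-beta signalling, rose from 23.4 ± 1.09 to 64.4 ± 1.46 FPKM. The ligand TGFB2, chosen after its values were seen, rose from 17.3 ± 1.88 to 35.6 ± 0.852 FPKM, and its coreceptor TGFBR3 fell from 1.65 ± 0.0815 to 0.838 ± 0.0480 FPKM. Some well-known mesenchymal genes were not called: S100A4 was at 110.1 ± 11.6 FPKM in control and 100.3 ± 2.60 FPKM after siSIRT6, called only without control replicate 2 (-0.21), and the transcription factor ZEB1, chosen after its values were seen, at 5.68 ± 0.745 FPKM in control and 5.53 ± 0.136 FPKM after siSIRT6.

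Against siKDM5C, 57 matrix members were higher after siSIRT6 (43.5%, against 18.6% of all genes) and 30 lower (22.9%, against 21.3%). Of the members, 46 both rose against control and were higher than after siKDM5C (35.1%, against 9.71% of all genes). The program's median against control was 0.26 after siSIRT6 and 0.16 after siKDM5C, values that share the controls, so both knockdowns leaned up. These medians were 0.24 and 0.29 for the basement membrane list but 0.41 and -0.02 for integrins and matrix receptors. COL5A2 was at 32.4, 35.5 and 35.7 FPKM in the siKDM5C libraries, all under the siSIRT6 libraries (1.56, adjusted p = 3.46e-06), and COL1A1 at 15.1, 14.9 and 16.9 FPKM, close to its control values (1.35, adjusted p = 2.17e-06). Other large changes were not called different between the knockdowns. NTN4 was at 76.97, 78.2 and 73.1 FPKM after siKDM5C (0.01, adjusted p = 0.92), and PLAU at 286, 287 and 326 FPKM (-0.11, adjusted p = 0.198). SDC1, the epithelial syndecan, fell from 18.4 ± 1.73 to 12.6 ± 0.427 FPKM after siSIRT6 but stood at 37.7 ± 2.67 FPKM after siKDM5C (-1.50, adjusted p = 5.05e-06).

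Lipid genes changed by smaller amounts, and the clearest lean was that of cholesterol synthesis, with 16 rises and 1 fall. Of 135 tested members 64 rose (47.4%, against 26.9% of all genes), 26 fell (19.3%) and 45 were not called, with a median of 0.15. A change of at least 1 log2 was made by 3 rises and 1 fall. Of the 158 listed genes 21 were below the expression minimum and 2 are not analysed here; MGLL passed only through siSIRT6 and ACSL5 and ELOVL7 only through control, which in part set their direction.

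In cholesterol synthesis 16 of 22 enzymes rose and 1 fell (median 0.26). HMGCS1, which makes HMG-CoA at the head of the pathway, stood at 14.1, 13.96 and 12.9 FPKM in control and 21.3, 22.3 and 21.9 FPKM after siSIRT6. Its siSIRT6 libraries lay above all controls, by 0.64 (SE 0.05, adjusted p = 9.15e-05). Phosphomevalonate kinase (PMVK) rose from 11.4 ± 1.43 to 20.3 ± 0.589 FPKM. NSDHL was not called at 44.9 ± 4.08 FPKM in control and 44.2 ± 2.10 FPKM after siSIRT6. LBR, a sterol reductase that is also a receptor of the nuclear lamina, fell from 20.6 ± 0.961 to 13.3 ± 0.202 FPKM.

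Genes of cholesterol uptake, export and sterol sensing were evenly split, with 7 rises, 7 falls and 9 not called of 23. OSBPL5, a lipid carrier at membrane contacts, rose from 1.70 ± 0.190 to 5.44 ± 0.146 FPKM. INSIG1, which holds the sterol sensor in the endoplasmic reticulum and is itself a target of SREBP factors, rose from 22.8 ± 1.41 to 46.7 ± 0.761 FPKM, and the cholesterol exporter ABCA1 rose from 1.20 ± 0.0894 to 2.65 ± 0.125 FPKM. NCEH1, a hydrolase of cholesterol esters, fell from 91.4 ± 4.87 to 45.7 ± 0.388 FPKM. SREBF2, the factor that drives sterol synthesis, was not called at 25.04 ± 0.340 FPKM in control and 24.1 ± 0.627 FPKM after siSIRT6 (95% interval -0.14 to 0.03). The sterol response word CACNCCAC, on either strand, was in 7 of 52 promoters of lipid members that rose, 0 of 18 that fell, 5 of 39 not called and 5.74% of all promoters, and in 1 of 17 of the cholesterol synthesis list.

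In fatty acid synthesis 11 of 24 rose and 7 fell. The malic enzyme ME1, which supplies NADPH, rose from 13.6 ± 0.953 to 26.6 ± 0.614 FPKM, and the elongation enzyme HSD17B12 rose from 11.1 ± 1.33 to 21.5 ± 0.630 FPKM, with 948 exonic bases shared with an antisense gene. The elongase ELOVL2 fell from 28.6 ± 2.81 to 17.2 ± 0.361 FPKM and the acyl-CoA synthetase ACSL5 fell from 2.01 ± 0.159 to 0.838 ± 0.0909 FPKM, while HACD2 stood at 36.8 ± 3.85 FPKM in control and 34.1 ± 0.492 FPKM after siSIRT6, called only without control replicate 3 (-0.19). Phospholipid and droplet genes had 15 rises and 9 falls of 37. LPCAT2, which remodels phosphatidylcholine and makes platelet activating factor, stood at 5.87, 6.13 and 5.13 FPKM in control and 10.9, 11.2 and 11.1 FPKM after siSIRT6 (0.85, SE 0.06, adjusted p = 1.09e-04). Another lysophospholipid acyltransferase, MBOAT1, fell from 5.31 ± 0.399 to 1.65 ± 0.107 FPKM. The monoglyceride lipase MGLL rose from 0.696 ± 0.118 to 1.79 ± 0.124 FPKM, the droplet coat gene PLIN3 rose from 61.9 ± 2.75 to 99.7 ± 6.55 FPKM, and PCYT1A, which limits phosphatidylcholine synthesis, was not called at 19.2 ± 0.570 FPKM in control and 19.4 ± 0.527 FPKM after siSIRT6.

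Genes of fatty acid uptake and oxidation had 15 rises, 2 falls and 12 not called of 29. PPARG (ENSG00000132170, chr3:12287368-12434356, plus strand), a nuclear receptor for fatty acids, stood at 3.57, 3.57 and 3.51 FPKM in control and 9.90, 10.6 and 10.1 FPKM after siSIRT6, the largest rise of the lipid program (1.30, SE 0.04, adjusted p = 8.09e-06). SLC25A20, the carnitine carrier of mitochondria, rose from 4.36 ± 0.432 to 9.25 ± 0.284 FPKM. The electron acceptor subunit ETFB rose from 2.71 ± 0.294 to 5.80 ± 0.211 FPKM, whereas its partner ETFA stood at 17.6 ± 1.32 FPKM in control and 19.4 ± 0.308 FPKM after siSIRT6, called only without control replicate 3 (0.19), and the isomerase ECI1 rose from 7.27 ± 0.239 to 13.9 ± 0.153 FPKM. CPT1B, the muscle form of the carnitine transferase, was called lower (3.07 ± 0.341 FPKM in control and 2.15 ± 0.317 FPKM after siSIRT6, adjusted p = 0.0169), a call lost without siSIRT6 replicate 2 (-0.36, adjusted p = 0.0535) or 3 (-0.31, adjusted p = 0.0538). Its exons are shared with the readthrough gene CHKB-CPT1B.

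Cholesterol synthesis separated the knockdowns. Of 22 members 19 were higher after siSIRT6 than after siKDM5C, and 15 of these had also risen against control; the list's median against control was 0.26 after siSIRT6 and -0.37 after siKDM5C, values that share the controls. MSMO1, a demethylating oxidase of sterols, was at 52.8, 55.7 and 44.1 FPKM in control, 67.8, 69.9 and 68.4 FPKM after siSIRT6 and 19.6, 24.96 and 18.2 FPKM after siKDM5C. The knockdowns lay on either side of the control (1.68 between them, adjusted p = 2.34e-05). LPCAT2 was at 2.49, 3.65 and 2.57 FPKM after siKDM5C (1.64, adjusted p = 1.70e-05) and PPARG at 4.32, 4.16 and 4.41 FPKM (1.08, adjusted p = 2.19e-06), both below the siSIRT6 libraries. Over the whole lipid program 52 members were higher than after siKDM5C (38.5%, against 18.6% of all genes). Another 26 were lower (19.3%), near the 21.3% of all genes.

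**Figure D3:**
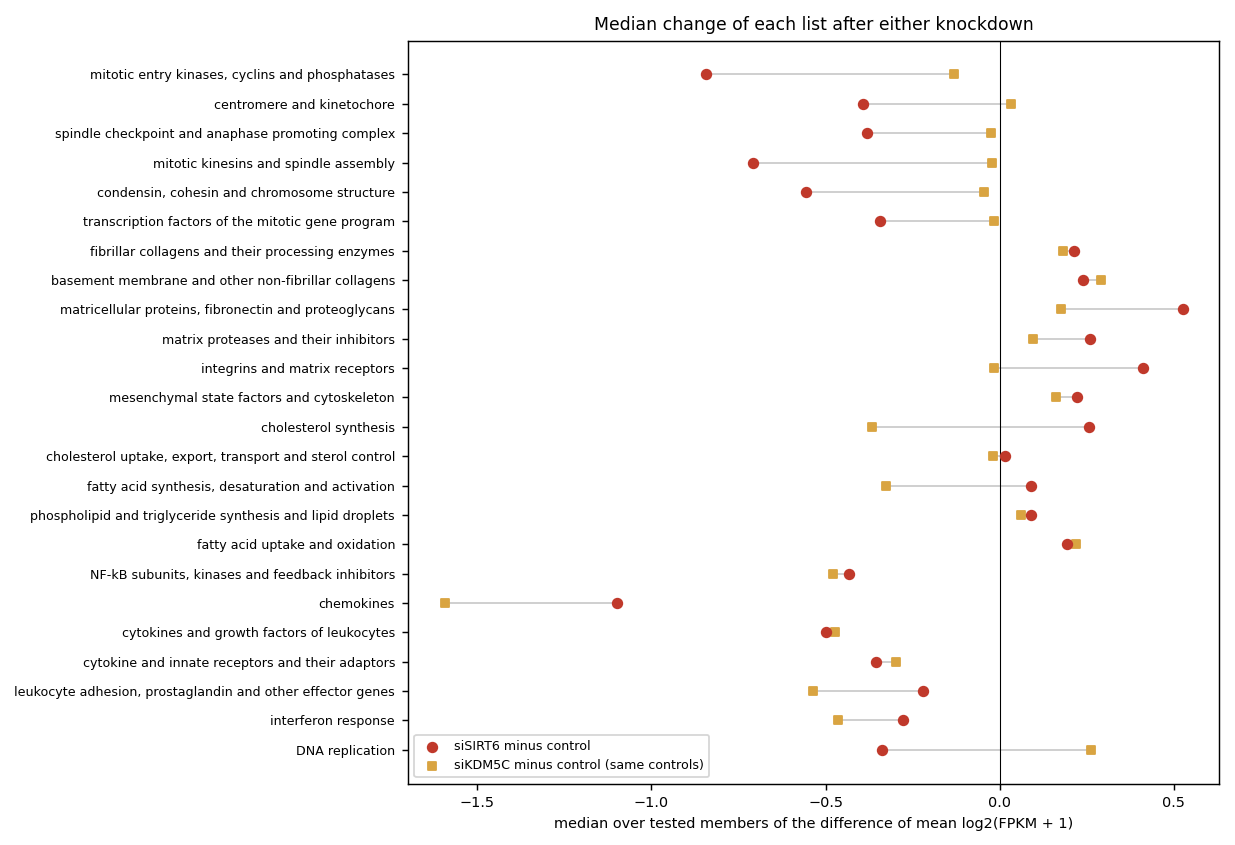
Median difference of mean log2(FPKM + 1) against control over the tested members of each list (horizontal axis), for siSIRT6 and for siKDM5C, which share the 3 control libraries. The mitosis lists lie low after siSIRT6 and near 0 after siKDM5C (program medians -0.52 and -0.02), while the inflammation lists lie low after both (-0.38 and -0.47).

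Inflammatory genes were lower after siSIRT6, from NF-kB feedback genes to chemokines and adhesion receptors. Of 133 tested members 82 fell (61.7%, against 31.3% of all genes), 15 rose and 36 were not called, and 24 fell by at least 1 log2 (18.05%, against 2.18%). The median was -0.38. Of 205 listed genes 69 with values were below the expression minimum and 3 are not analysed here. MX2 and TLR4 passed only through siSIRT6, and CASP1, ICAM4, IL22RA1, IL23A, JAK2 and TNFRSF9 only through control, so their direction was in part set by the filter. The leukocyte markers summed to 44.2 to 58.3 FPKM in control and 36.7 to 39.4 FPKM after siSIRT6, mostly CD68; without CD68 and CD14 the sums were 0.744 to 0.835 and 0.614 to 0.844 FPKM, and PTPRC and LYZ were at or near 0.

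Among 30 NF-kB components 19 fell and 1 rose. NFKBIA (ENSG00000100906, chr14:35401511-35404749, minus strand), the inhibitor that NF-kB induces to shut itself off, stood at 103, 104 and 85.96 FPKM in control and 25.9, 26.7 and 27.4 FPKM after siSIRT6, with the groups far apart (-1.83, SE 0.08, adjusted p = 1.58e-05). ICAM1 (ENSG00000090339, chr19:10270835-10286615, plus strand), the receptor by which leukocytes adhere, stood at 644, 639 and 616 FPKM and 150.2, 149 and 152 FPKM (-2.06, SE 0.04, adjusted p = 4.00e-06); it shares 815 exonic bases with ICAM4-AS1. CXCL1 (ENSG00000163739, chr4:73869393-73871242, plus strand), a neutrophil chemokine, went against its list, at 20.5, 19.8 and 16.6 FPKM in control and 38.9, 41.9 and 39.6 FPKM after siSIRT6 (1.05, SE 0.08, adjusted p = 1.25e-04). All 3 promoters hold the NF-kB word GGNNNTTCC, shown in capitals and also read on the reverse strand, in the same RefSeq windows: ICAM1 at chr19:10270870-10271169, plus strand, NFKBIA at chr14:35404700-35404999, minus strand, and CXCL1 at chr4:73869143-73869442, plus strand. They show that genes with the same word moved in opposite directions.
ICAM1: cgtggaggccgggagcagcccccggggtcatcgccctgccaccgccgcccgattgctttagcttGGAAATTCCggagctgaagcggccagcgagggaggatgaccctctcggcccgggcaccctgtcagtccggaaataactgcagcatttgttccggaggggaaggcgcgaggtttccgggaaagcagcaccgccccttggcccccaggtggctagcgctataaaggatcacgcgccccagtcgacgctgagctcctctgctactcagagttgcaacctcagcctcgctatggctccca
NFKBIA: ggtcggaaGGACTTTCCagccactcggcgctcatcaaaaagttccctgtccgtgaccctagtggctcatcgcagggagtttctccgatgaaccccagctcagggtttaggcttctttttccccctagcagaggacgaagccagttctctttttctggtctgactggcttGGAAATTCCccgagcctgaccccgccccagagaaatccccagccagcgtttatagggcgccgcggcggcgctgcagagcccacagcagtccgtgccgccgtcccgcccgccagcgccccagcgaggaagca
CXCL1: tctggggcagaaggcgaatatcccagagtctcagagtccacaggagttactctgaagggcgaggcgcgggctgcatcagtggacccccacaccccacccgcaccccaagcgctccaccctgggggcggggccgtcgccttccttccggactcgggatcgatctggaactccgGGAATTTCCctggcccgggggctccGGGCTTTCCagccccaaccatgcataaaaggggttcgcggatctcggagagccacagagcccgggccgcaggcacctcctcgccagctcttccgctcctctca

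The ICAM1 window held GGAAATTCC starting at base -186 from the start site. NFKBIA held GGACTTTCC at -242 and GGAAATTCC at -81, and CXCL1 held GGAATTTCC at -78 and GGGCTTTCC at -53. The word was in 29 of 63 promoters of inflammation members that fell (46.0%), 5 of 12 that rose and 7 of 31 that were not called, against 20.1% of all promoters. As with the mitosis words, a match is only a description of the letters.

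Other NF-kB feedback genes fell too. TNFAIP3, an enzyme that edits ubiquitin to end the signal, fell from 8.97 ± 0.432 to 2.89 ± 0.242 FPKM. The inhibitor of apoptosis BIRC3 stood at 103, 106 and 88.99 FPKM in control and 40.7, 42.3 and 41.5 FPKM after siSIRT6 (-1.24, SE 0.07), and the adaptor TRAF1 fell from 20.05 ± 0.715 to 8.67 ± 0.193 FPKM. TRAF3, an adaptor that restrains the noncanonical pathway, rose from 4.68 ± 0.335 to 9.55 ± 0.177 FPKM. The scaffold IKBKG (NEMO) stood at 61.5 ± 10.1 FPKM in control and 64.7 ± 2.20 FPKM after siSIRT6, called only without control replicate 3 (0.21). RELA and NFKB1, the subunits of the canonical dimer and chosen after their values were seen, fell by 0.39 and 0.97 on the log2 scale.

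Of 9 chemokines 7 fell, 1 rose and 1 was not called, with a median of -1.10. CCL20, which draws dendritic cells and T cells, stood at 11.6, 11.3 and 9.95 FPKM in control and 2.33, 1.59 and 2.28 FPKM after siSIRT6 (-1.97, SE 0.11, adjusted p = 4.14e-05). The membrane-bound chemokines CXCL16 (5.49 ± 0.353 FPKM in control and 1.37 ± 0.176 FPKM after siSIRT6) and CX3CL1 (15.4 ± 0.113 FPKM in control and 5.10 ± 0.0538 FPKM after siSIRT6) fell too. CXCL2, a close relative of CXCL1, fell from 13.3 ± 1.82 to 5.19 ± 0.393 FPKM, opposite to it; reads of such similar genes can be shared. CCL5 was not called at 3.16 ± 3.01 FPKM in control and 0.994 ± 0.417 FPKM after siSIRT6 (95% interval -2.01 to 0.33).

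Cytokine genes had 7 falls and 2 rises of 12. CSF2 (GM-CSF) stood at 10.1, 8.85 and 7.00 FPKM in control and 0.968, 0.591 and 1.08 FPKM after siSIRT6, the largest fall of the 4 programs (-2.36, SE 0.15, adjusted p = 6.23e-05). It was at 1.13, 0.823 and 1.42 FPKM after siKDM5C and was not called different between the knockdowns (-0.17, adjusted p = 0.406). IL23A fell from 5.98 ± 0.205 to 0.583 ± 0.154 FPKM, EBI3, a subunit of related heterodimeric cytokines, fell from 26.4 ± 2.90 to 5.77 ± 0.260 FPKM, and CSF1, the macrophage growth factor, fell from 62.8 ± 1.02 to 27.7 ± 0.528 FPKM. TNFSF15 rose from 1.43 ± 0.133 to 3.72 ± 0.0712 FPKM, and TNFSF9 was not called at 5.54 ± 0.477 FPKM in control and 6.52 ± 0.886 FPKM after siSIRT6. Among 33 receptors and adaptors 20 fell and 7 rose. SOCS1, which blocks JAK kinases, fell from 5.73 ± 0.385 to 1.37 ± 0.143 FPKM, the tumour necrosis factor receptor TNFRSF1B fell from 46.7 ± 3.37 to 17.9 ± 0.412 FPKM, TNFRSF9 fell from 3.21 ± 0.0923 to 0.838 ± 0.0904 FPKM, and the shared receptor chain IL6ST fell from 75.00 ± 10.7 to 37.3 ± 0.985 FPKM. STAT3, the transcription factor downstream of IL6ST, stood at 19.9, 20.4 and 19.1 FPKM and 38.2, 38.8 and 38.9 FPKM and rose by 0.93 (SE 0.04, adjusted p = 1.28e-05). The kinase IRAK2 was not called at 25.99 ± 0.681 FPKM in control and 24.2 ± 0.672 FPKM after siSIRT6.

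In the effector list 8 of 15 fell and 2 rose. Beside ICAM1, its neighbour ICAM4 (4.78 ± 0.243 FPKM in control and 0.720 ± 0.0980 FPKM after siSIRT6), the prostaglandin E synthase PTGES (12.8 ± 0.667 FPKM in control and 3.48 ± 0.306 FPKM after siSIRT6) and TNFAIP2 (275 ± 6.67 FPKM in control and 109 ± 3.66 FPKM after siSIRT6) fell; ICAM4 shares 987 exonic bases with ICAM4-AS1. The prostaglandin receptor PTGER4 rose from 8.24 ± 0.731 to 15.8 ± 0.384 FPKM, and PTGES3 was not called at 93.96 ± 4.95 FPKM in control and 95.6 ± 0.748 FPKM after siSIRT6. Interferon response genes had 21 falls, 2 rises and 11 not called of 34. IRF1, a transcription factor of the interferon pathway, fell from 11.2 ± 0.463 to 4.61 ± 0.157 FPKM, sharing 939 exonic bases with IRF1-AS1. IFIT2 (21.9 ± 1.25 FPKM in control and 9.55 ± 0.494 FPKM after siSIRT6), IFIT3 (9.27 ± 0.362 FPKM in control and 3.84 ± 0.347 FPKM after siSIRT6) and the RNA sensor IFIH1 (10.1 ± 1.05 FPKM in control and 5.98 ± 0.124 FPKM after siSIRT6) fell, yet IFIT1, of the same family, rose from 7.09 ± 0.204 to 8.43 ± 0.0358 FPKM. JAK1 stood at 29.1 ± 1.57 FPKM in control and 26.9 ± 0.242 FPKM after siSIRT6, called only without control replicate 3 (-0.15).

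In this program more members were higher than lower after siSIRT6 when set against siKDM5C. Of the 133 members 22 were lower (16.5%, against 21.3% of all genes) and 51 higher (38.3%, against 18.6%) after siSIRT6. Among the 133, 13 both fell against control and were lower than after siKDM5C (9.77%, against 11.5% of all genes). NFKBIA was at 23.4, 28.5 and 26.6 FPKM after siKDM5C, around the siSIRT6 values (0.03, adjusted p = 0.819), and ICAM1 at 96.4, 102 and 108 FPKM, below them (0.56, adjusted p = 1.08e-04). The mitochondrial dismutase SOD2 (27.4 ± 0.572 FPKM after siSIRT6, 8.25 ± 0.328 FPKM after siKDM5C) and EBI3 (5.77 ± 0.260 and 1.56 ± 0.407 FPKM) were lower still after siKDM5C. CXCL1 and STAT3, which rose, were also higher than after siKDM5C, with 16.4 ± 1.26 and 24.01 ± 0.669 FPKM after siKDM5C and adjusted p = 1.99e-05 and 1.81e-05 for the difference. Of the members that fell against control, 13 of 82 in inflammation and 95 of 111 in mitosis were thus also lower than after siKDM5C. Over all tested genes, 1797 of the 4889 that fell were also lower than after siKDM5C.

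**Figure D4:**
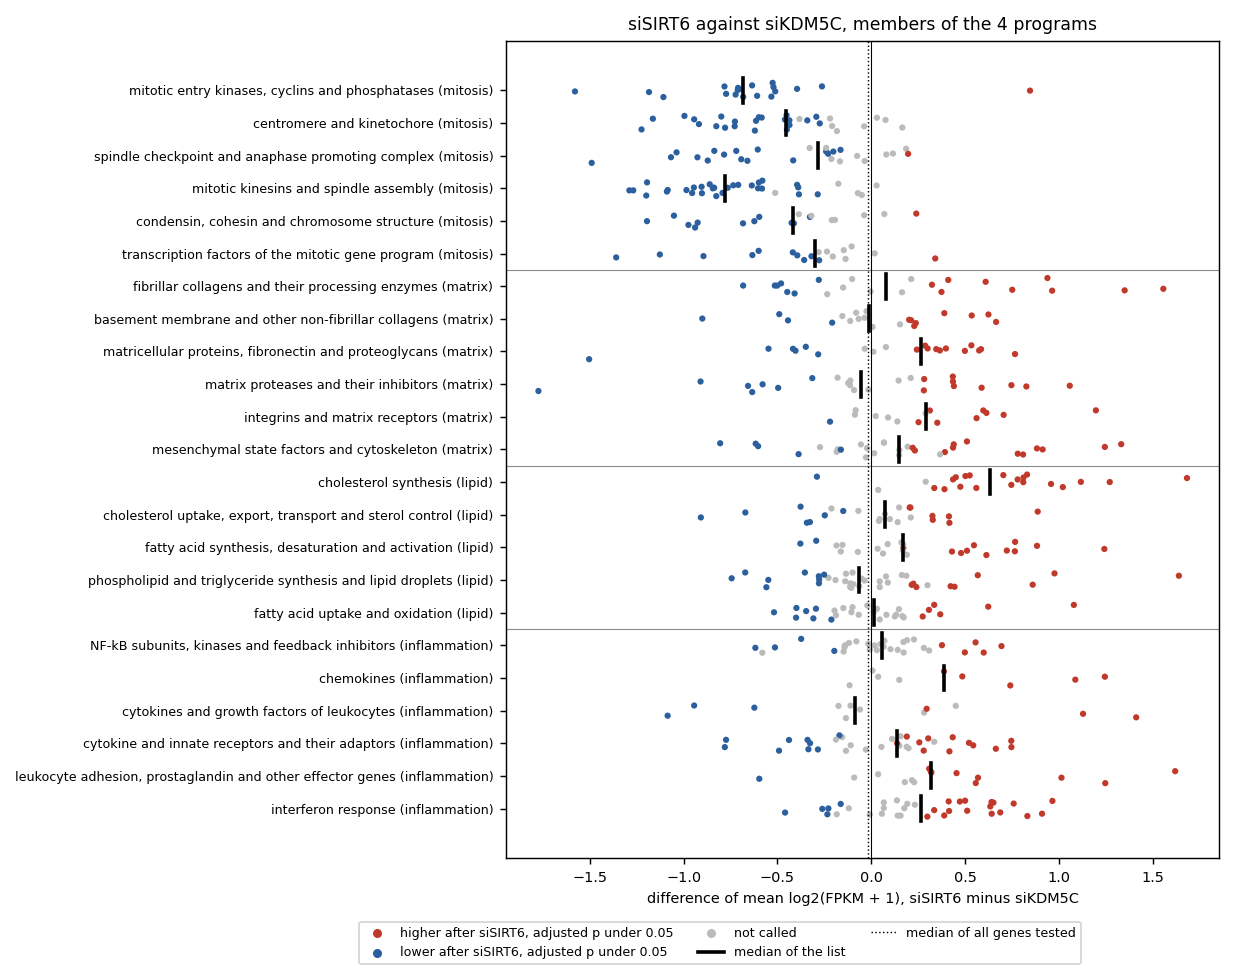
Each point is a tested member placed by its difference of mean log2(FPKM + 1) between 3 siSIRT6 and 3 siKDM5C libraries (horizontal axis), red where higher after siSIRT6, blue where lower and grey where not called; black bars are list medians and the dotted line the median of all genes tested. Blue points fill the mitosis lists (106 of 145), red points the cholesterol synthesis list (19 of 22), and inflammation has more red than blue (51 and 22).

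Glycolysis and hypoxia genes, a context list because SIRT6 is known to restrain them, showed no common direction, with 8 rises, 9 falls and 11 not called of 28 (median -0.01). The phosphofructokinase PFKL rose from 3.93 ± 0.343 to 8.83 ± 0.343 FPKM and the secreted peptide ADM rose from 22.2 ± 0.395 to 31.3 ± 0.507 FPKM, while the aldolase ALDOC fell from 15.5 ± 0.967 to 7.91 ± 0.758 FPKM and the mitophagy receptor BNIP3 fell from 22.7 ± 0.957 to 15.2 ± 0.288 FPKM. ENO1 was not called at 427 ± 26.1 FPKM in control and 406 ± 9.30 FPKM after siSIRT6 (95% interval -0.20 to 0.06). NDRG1, a hypoxia-induced gene, fell from 4.72 ± 0.253 to 3.63 ± 0.0364 FPKM but was at 11.1 ± 0.343 FPKM after siKDM5C (-1.39, adjusted p = 1.11e-06).

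Several of the 15 highest rises and 15 largest falls over all tested genes lay outside the programs. FOXS1, a forkhead transcription factor, stood at 0.802, 0.443 and 0.658 FPKM in control and 6.29, 5.21 and 6.36 FPKM after siSIRT6 but at 0.402, 0.208 and 0.561 FPKM after siKDM5C (adjusted p = 5.98e-06 between the knockdowns). SLITRK6, a neuronal membrane protein gene, went from 0.455 ± 0.115 to 5.39 ± 0.0899 FPKM and the histone methyltransferase gene SETD7 from 2.16 ± 0.105 to 12.2 ± 0.374 FPKM. PERP, of desmosomes, went from 30.5 ± 3.56 to 156 ± 2.44 FPKM. After siKDM5C, SLITRK6 stood at 1.71 ± 0.322 FPKM, SETD7 at 7.29 ± 0.508 FPKM and PERP at 73.3 ± 13.2 FPKM, each between control and siSIRT6. FOXS1 and SLITRK6 reached the expression minimum only through the siSIRT6 libraries, which in part set their direction. B3GNT7, a glycosyltransferase, and the histone gene H2BC5 were also among the rises, at 48.9 ± 0.869 and 38.2 ± 2.02 FPKM after siSIRT6 against 9.23 ± 0.345 and 8.21 ± 0.829 FPKM in control. After siKDM5C they stood between these levels, at 22.4 ± 2.53 and 15.8 ± 0.524 FPKM. KIF1C, a kinesin of vesicle transport, and its overlapping partner KIF1C-AS1 rose from 5.42 ± 0.343 to 26.3 ± 0.335 FPKM and from 8.78 ± 0.803 to 49.3 ± 0.613 FPKM, with close values after siKDM5C (27.8 ± 1.80 and 46.6 ± 7.34 FPKM). CCND1, a cyclin of the early cell cycle, fell from 205 ± 15.5 to 48.7 ± 0.187 FPKM, with 34.8 ± 1.25 FPKM after siKDM5C. The rest of the rises were CPA4, OPN3, KMO, NTN4, THBS1-AS1, THBS1 and COL5A2. All of these were also higher after siKDM5C than in control, by 0.51 (COL5A2) to 2.59 (NTN4). AMPD3, which deaminates AMP, and ANO9, of the anoctamin family, led the falls with -2.57 and -2.51, and CSF2, SIRT6, IL23A, ICAM4-AS1 and ICAM1 were among them; SIRT6 and IL23A reached the minimum only through the controls. The other 7 falls were small RNA genes under 200 bases (MIR6895, MIR4635, MIR146A, MIR6859-1, MIR6772, SNORD14A and MIR3189), of which MIR6895 and MIR4635 passed only through the controls. These rested on 3 to 58 reads per control library and 0 to 16 per siSIRT6 library, in a protocol for messenger RNA, and MIR6772 was not called with a pseudocount of 0.1.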

How the data were processed

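RNA was sequenced from PANC-1 cells taken 48 h after siRNA transfection, and the 9 libraries were grouped by their titles. The authors deposited 1 FPKM value per gene and library for 36753 Ensembl identifiers. Per the submitters' processing notes, Trimmomatic, HISAT2, Cufflinks, HTSeq and the hg38 build were used, with no versions, no roles and no annotation stated. Symbols were matched for 36659 identifiers in a gene name table, and 35564 were in GENCODE release 29, which gave coordinates and exon overlaps. Beside those given with their values, OPN3, PLIN3, ALDOC, CCND1, SOD2, HMGCS1, KMO, IFIT2, PLAU, PMEPA1, IL6ST, SIRT3, CCNA2, MCM7, TPM4, SREBF2 and IKBKG share at least 200 exonic bases with another gene in a single pair of exons, and their reads may be shared. Genes that overlap only in shorter pieces were not listed. Depth was read from the FPKM steps, of which 59.1% to 61.1% of values were whole reads with the union of annotated exons as length (tolerance 0.01 of a read); a count test was therefore not run.

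The fit of log2(FPKM + 1) kept genes that reached 1 FPKM in 3 or more of the 6 libraries and used limma 3.58.1 under R 4.3.3 (limma-trend, group term only, two-sided, Benjamini-Hochberg over all 15630 genes, threshold 0.05). Changes on that scale understate the ratio of genes with low values. The siSIRT6 minus siKDM5C contrast came from a fit of all 9 libraries. Replicates differed beyond counting noise (chi-square per degree of freedom 2.04 to 4.70 in the 6 libraries) and were counted separately. The method was tested on simulated data. Alternatives were a pseudocount of 0.1, no filter, at least 5 FPKM, median-of-ratios scaling, a replicate block, another set of libraries in the fit and each library left out.

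The members and lists were chosen with earlier results of these data known, so their counts are descriptions and no set test was run. Named genes were SIRT6 and KDM5C; in each list up to 4 called members with the largest change and no overlap between groups, the called member with the largest change against the list's majority, and the highest member not called; the 15 highest rises and 15 largest falls with a mean of at least 2 FPKM; and the 5 members with the largest difference each way between the knockdowns. Others are said to be chosen after their values were seen. A gene that this rule names is not reported here. Promoters, at hand for 27305 genes, came from RefSeq (GRCh38.p14).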

Additional observations from a re-analysis of the deposited data

How the results depend on the processing

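No called change of a named gene reversed under any alternative run, and counts of calls were within 1.5 times the reported ones except as follows. With at least 5 FPKM, which tested fewer genes, 6010 genes were called and 3160 fell, 16 matrix members fell, 9 inflammation members rose, and 2255 genes were lower than after siKDM5C. The mitosis members higher than after siKDM5C (4) were 2 with no filter, and 2 to 3 with a library left out; they were 2 without siKDM5C replicate 3, siSIRT6 replicate 1 or siSIRT6 replicate 3. With a library left out, 7484 to 9179 genes were called against control. Scaled by median of ratios, 4619 genes rose and 4442 fell, so that rises outnumbered falls, whereas without scaling 4211 rose and 4889 fell. Without the filter SIRT4 was no longer called (adjusted p = 0.072). Same-numbered siSIRT6 and control libraries deviated with r of 0.0125, 0.0417 and 0.0466, and those of unlike number with r of -0.0737 to 0.0316. These values are small and do not settle whether the numbers pair libraries. With a replicate block 8629 genes were called, and SIRT4 was the 1 named gene no longer called (adjusted p = 0.0751). At these depths small RNA genes rested on few reads, and a level under 0.111 to 0.165 FPKM for a gene of 1 kilobase was not detectable.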
